A study of Mus musculus with 8 samples.

Results

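The genes described here encode the classical and nonclassical major histocompatibility complex (MHC) class I molecules of the mouse and a pair of proteins these molecules depend on. There were 10 such genes, chosen by symbol: H2-K1, H2-D1, B2m, H2-Q4, H2-Q6, H2-Q7, H2-T22, H2-T23, H2-M3 and Tapbp. Each of the 10 had a line in the deposited table of 29426 gene symbols, and all 10 were among the 12313 genes expressed highly enough to be tested. RNA had been sequenced from 8 libraries of CD8+ T cells, the cytotoxic lineage of lymphocytes, sorted from mouse spleen with the surface proteins CD44 and CD122. The titles divide them into mCre-MP, mCre-TN, WT-MP and WT-TN, with 2 libraries each. WT and mCre are genotype labels. A microRNA family, miR-29, appears in the series title together with Cre, but the sources used here do not spell out the allele, the promoter driving Cre or the strain of the mCre animals. TN and MP label the subsets, of which the design text calls the second VM. Spleens were adult or neonatal according to the protocol, with no age given for a single library. Nothing says whether the 2 libraries of a group came from separate animals, so p-values measure the spread between these libraries, which may be technical.

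Class I molecules sit on the surface of nearly all nucleated cells as a heavy chain paired with the light chain beta-2 microglobulin, and show peptides from inside the cell to CD8+ T cells. The classical heavy chains H2-K and H2-D are highly polymorphic and present peptides of many kinds. The nonclassical chains of the Q, T and M regions vary less, and several have a narrow ligand: Qa-1, encoded by H2-T23, shows a leader peptide of other class I chains to the receptor CD94/NKG2A, and H2-M3 presents peptides that begin with formylmethionine. H2-Q6 and H2-Q7 belong to the group of genes that encode Qa-2. T cells themselves carry class I, and interferons raise its transcription.

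Genes of CD3 and CD8 were abundant in all 8 libraries. The genes of the sorting markers CD44 and CD122 were not examined. Summed over the 8 T cell markers with a line in the table (Cd3d, Cd3e, Cd3g, Cd8a, Cd8b1, Cd247, Lck and Cd4), levels were 5898 to 6288 CPM (counts scaled to a common library total) in the 8 libraries, and Cd4 stayed under 1 CPM in each. The 9 B cell markers summed to 16.9 to 25.7 CPM, and Ms4a1, Pax5, Ebf1, Blnk and Fcmr were each under 1 CPM in all 8 libraries. The 15 myeloid markers summed to 35.6 to 53.8 CPM in the WT libraries and to 24.1 to 32.5 CPM in the mCre libraries. Of 12 tested myeloid markers, edgeR called C1qa, Csf1r and Vcam1 lower in mCre-TN (1.92% of all genes were) and C1qa lower in mCre-MP (1.97% of all genes). With voom 0 of the 12 were called in either comparison, and with DESeq2 3 in each. Across subsets edgeR called 6 of the 12 lower in mCre: C1qa, Vcam1, Csf1r, C1qc, Adgre1 and C1qb (5.97% of all genes were lower). DESeq2 called 6 there and voom 4. The 10 dendritic cell markers summed to 43.5 to 54.6 CPM in WT-TN and 61.5 to 63.1 CPM in mCre-TN. In MP cells they summed to 92.2 to 98.9 CPM (WT) and 114 to 123 CPM (mCre). Of 6 tested, Bst2, which interferon also induces, was called higher in mCre-MP, where 2.08% of all genes were. NK and innate lymphoid markers, several of which memory-type CD8+ T cells also express, summed to 105 to 111 CPM in WT-TN and 96.6 to 99.5 CPM in mCre-TN, against 340 to 364 CPM (WT) and 297 to 323 CPM (mCre) in MP cells. The class II genes with Cd74 summed to 218 to 231 CPM in WT-TN and 197 CPM in both mCre-TN libraries, and to 112 to 147 CPM in the MP libraries, where the genotypes overlapped. Erythroid and platelet markers summed to 14 to 24.3 CPM in the WT libraries and to 25.3 to 63.6 CPM in the mCre libraries. The highest sum was in mCre-TN replicate 2, with Hbb-bs at 26.5 and Hbb-bt at 16.6 CPM. Of 5 tested, Alas2 and Hba-a1 were called higher in mCre across subsets, where 5.06% of all genes were. Within TN or MP, 0 of the 5 were called. Stromal markers summed to 196 to 207 CPM in WT-TN and 216 to 240 CPM in mCre-TN, and to 114 to 118 CPM (WT) and 136 to 140 CPM (mCre) in MP cells, with Col3a1 at 0 counts throughout. Nearly all of this was a single gene, Pecam1 (193 and 205 CPM in WT-TN, 237 and 213 CPM in mCre-TN). Pecam1 was called higher in mCre-MP, where 2.08% of all genes were. What part these marker differences have in the genotype differences below was not tested. Library totals ran from 13479586 to 30057658 counts. In bulk RNA a smaller number of cells of a type and less RNA per cell cannot be told apart.

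Of the 10 genes, 9 lie on chromosome 17 of GRCm38 and B2m lies on chromosome 2 (122147686 to 122153083, plus strand). Tapbp (33915899 to 33929292, plus strand) and H2-K1 (33996017 to 34000347, minus strand) are neighbours at one end of the complex. They are followed by H2-D1 (35262730 to 35267499), H2-Q4 (35379617 to 35385290), H2-Q6 (35424850 to 35430055) and H2-Q7 (35439155 to 35443773), all on the plus strand. H2-T23 (36029773 to 36032855) and H2-T22 (36037128 to 36042747) lie on the minus strand, and H2-M3 (37270220 to 37274484) on the plus strand. An annotated gene on the opposite strand overlaps B2m (Patl2), H2-Q4 (Gm11131), H2-T22 and H2-T23 (both A930015D03Rik) and Tapbp (Gm19412). How the counting treated strand is not stated, so reads of such pairs cannot be told apart. A930015D03Rik, Gm19412 and Gm11131 were not analysed here.

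Heavy chain genes resemble one another, and a read that falls in a shared stretch may have been dropped or counted for a paralog. This was measured on the annotated transcripts of GENCODE M21 as the share of all stretches of 100 bases that also occur in another gene's transcript. For H2-K1 it was 0.957%, for H2-D1 3.59%, for H2-T23 3.15%, for H2-Q7 12%, for H2-Q6 13%, for H2-Q4 14.1%, for Tapbp 14.8% and for H2-T22 31.5%. H2-Q6 shared most with H2-Q7 (8.36% of its stretches), H2-Q7 with H2-Q10 (5.56%), and H2-T22 with the antisense gene A930015D03Rik (24%). B2m and H2-M3 had no shared stretch of that length. At 50 bases the share was 35% for H2-Q6, 26.5% for H2-Q7, 36.4% for H2-Q4 and 53.5% for H2-T22. The read length is not stated either, and values of H2-Q4, H2-Q6, H2-Q7 and H2-T22 are therefore uncertain as to which paralog a read came from.

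The sequences before the start sites are shown because H2-K1, H2-Q4, H2-Q6 and H2-Q7 were called lower in mCre-TN, as described below, and H2-T22 was not. Each stretch is from RefSeq on GRCm38.p6, written 5′ to 3′ on the gene's own strand. Capitals mark matches, on either strand, to an NF-kB core (GGGATTCCC), an interferon response core (GAANNGAAA or GAAANNGAA), a CRE core (TGACG) and a CCAAT box (CCAAT). The letters searched for were settled after the windows had been seen. H2-K1 is at chr17:34000349-34000467 (minus strand), H2-Q4 at chr17:35379454-35379576, H2-Q6 at chr17:35424668-35424809, H2-Q7 at chr17:35439013-35439153 (all plus strand) and H2-T22 at chr17:36042750-36042953 (minus strand).
H2-K1: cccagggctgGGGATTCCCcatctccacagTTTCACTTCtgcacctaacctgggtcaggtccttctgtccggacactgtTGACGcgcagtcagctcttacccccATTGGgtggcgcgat
H2-Q4: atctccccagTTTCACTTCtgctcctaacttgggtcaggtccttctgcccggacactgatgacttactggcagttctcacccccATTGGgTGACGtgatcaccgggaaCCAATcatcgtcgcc
H2-Q6: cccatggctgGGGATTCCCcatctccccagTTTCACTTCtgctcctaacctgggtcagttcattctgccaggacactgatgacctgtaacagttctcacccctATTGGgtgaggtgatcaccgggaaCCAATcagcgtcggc
H2-Q7: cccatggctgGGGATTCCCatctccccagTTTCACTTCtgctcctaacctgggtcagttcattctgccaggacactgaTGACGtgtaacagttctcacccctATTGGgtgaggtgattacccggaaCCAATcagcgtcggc
H2-T22: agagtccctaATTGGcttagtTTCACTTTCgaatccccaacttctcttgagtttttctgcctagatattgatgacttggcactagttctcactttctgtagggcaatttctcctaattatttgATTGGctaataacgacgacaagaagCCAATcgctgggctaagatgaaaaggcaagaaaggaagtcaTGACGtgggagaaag

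All 10 genes had a RefSeq window of 300 bases, from 250 bases before to 50 bases after the start. The NF-kB core stood in those of H2-K1, H2-D1, H2-Q6 and H2-Q7, and in 0.353% of the 32851 windows of the same length in the table. The interferon response core was found in 9 of the 10 (all but Tapbp), against 14.8% of all windows. The CRE core was found in 7 of the 10, against 20.8%, and the CCAAT box in 10, against 37.4%. The Tapbp window included chr17:33919228-33919327, bases 250 to 151 before the start used. These bases lie inside the annotated gene (33915899 to 33929292). The lack of interferon response and CRE cores in Tapbp therefore holds for that start only. H2-Q6 had no match to the CRE core, whereas H2-Q7 had one at positions −64 to −60 from its start. Over the 250 bases before the start, H2-Q6 was 70.7% identical to H2-Q7, 78.4% to H2-Q4 and 82% to H2-D1, with each window placed by its own start. The NF-kB core began at −172 in H2-Q6, −170 in H2-D1 and −132 in H2-Q7. The windows of H2-Q6 and H2-Q7 are thus offset, and these values do not rank how alike the sequences are. The matches describe these letters in these windows and say nothing about which factors bind there.

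**Figure D1:**
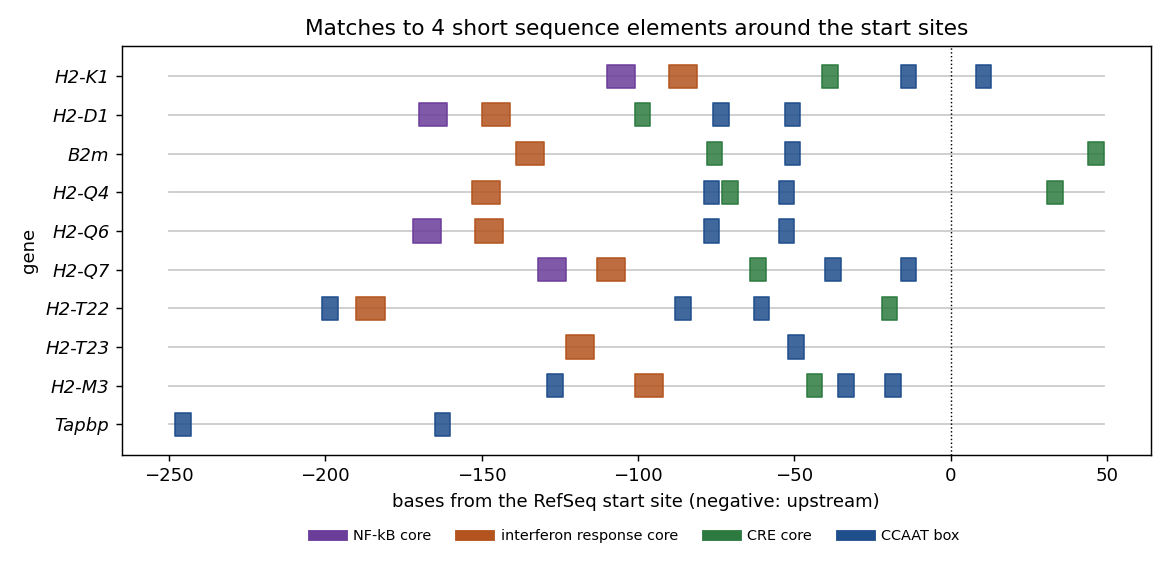
Matches to 4 short sequence elements in the windows of the 10 genes, from 250 bases before the RefSeq start site to 50 bases after it (x axis, bases; y axis, gene; coloured blocks, matches on either strand). The NF-kB core stands 5′ of the interferon response core in H2-K1, H2-D1, H2-Q6 and H2-Q7. The window of Tapbp, whose start lies inside the annotated gene, has CCAAT boxes only.

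The genes differed widely in level. Per kilobase of annotated exon, B2m had the highest level of the 10 (2737 CPM per kb averaged over the 8 libraries) and ranked 8 of the tested genes in WT-TN. The classical chains followed with 1090 CPM per kb for H2-K1 and 949 for H2-D1. H2-Q6 (218), H2-Q4 (171), H2-T23 (149), Tapbp (134) and H2-Q7 (124) formed a middle group, and H2-T22 (54.2) and H2-M3 (44.2) were lowest. The order within the middle group depended on the library group: per kb, H2-Q6 was above H2-Q4 in WT-TN (201 against 182) and below it in mCre-TN (105 against 155). The annotated exons of H2-Q7 add up to 4.265 kb and those of H2-Q6 to 2.085 kb, which lowers the value per kb of H2-Q7.

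**Figure D2:**
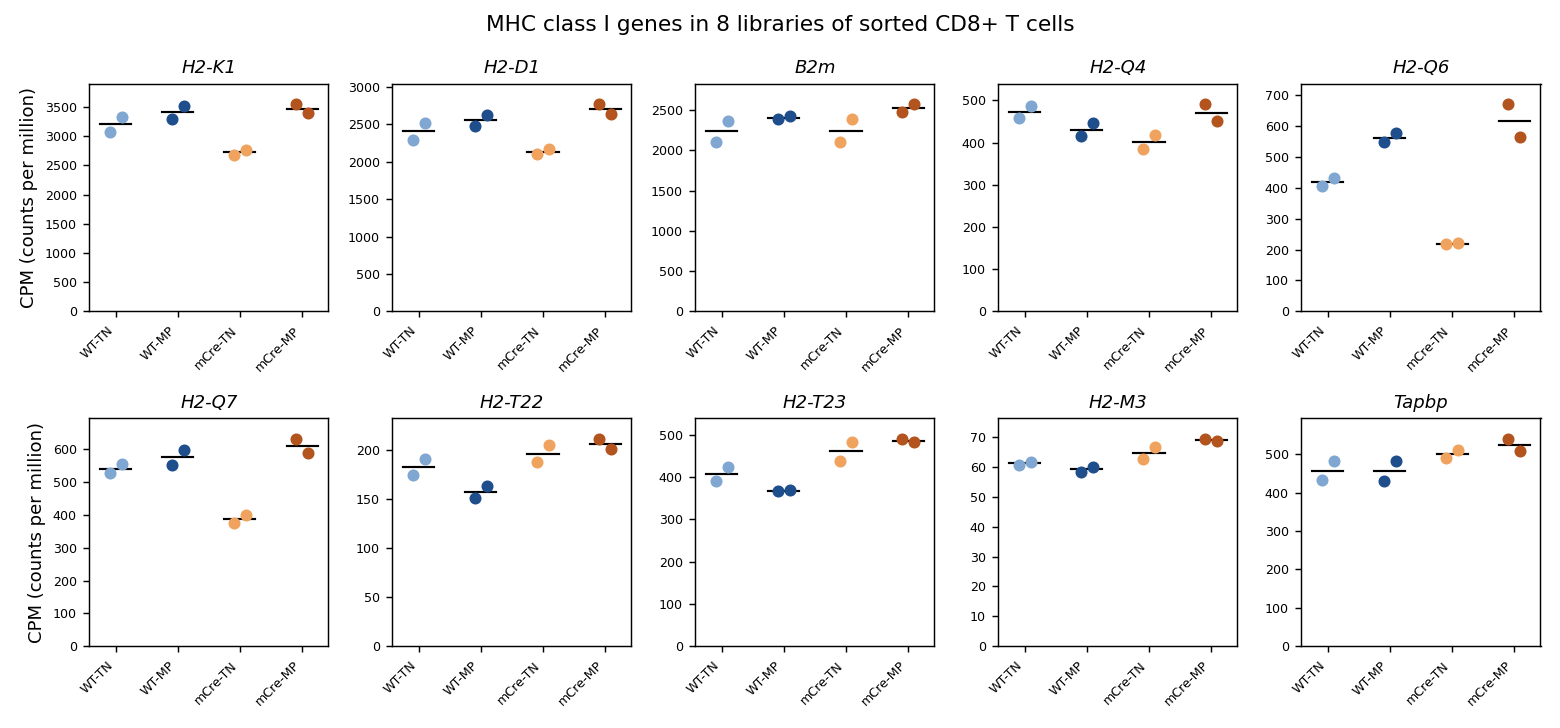
Level of each of the 10 genes in the 8 libraries (y axis, CPM, from 0; x axis, group; points, single libraries; lines, means of 2). H2-Q6 and H2-Q7 are lowest in both mCre-TN libraries (218 and 221 CPM, and 376 and 398 CPM), while H2-T22 and H2-T23 are lowest in the WT-MP libraries.

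In TN cells, genes of the Q region and H2-K1 were lower in mCre than in WT, and H2-Q6 changed most. H2-Q6 was at 406 and 432 CPM in WT-TN and at 218 and 221 CPM in mCre-TN. The groups did not overlap. The log2 fold change was −0.95 (SE 0.0675, edgeR quasi-likelihood adjusted p = 8.08e-07). H2-Q7 was at 526 and 554 CPM in WT-TN and at 376 and 398 CPM in mCre-TN, again without overlap. Its log2 fold change was −0.50 (SE 0.0559, adjusted p = 4e-05). Both calls held in each of the 15 alternative analyses.

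H2-Q4, a further Q-region chain, was at 458 and 487 CPM in WT-TN and at 386 and 418 CPM in mCre-TN. It fell by 0.25 (SE 0.0584, adjusted p = 0.0211). H2-K1 was at 3081 and 3324 CPM in WT-TN and at 2680 and 2767 CPM in mCre-TN, a log2 fold change of −0.25 (SE 0.0506, adjusted p = 0.00827). Both of these smaller calls rested on single libraries: without WT-TN replicate 2 the adjusted p was 0.169 for H2-Q4 and 0.0668 for H2-K1, and without mCre-TN replicate 1 it was 0.225 and 0.113. H2-D1, the other classical chain, was at 2289 and 2515 CPM against 2101 and 2163 CPM. Its libraries did not overlap either, but its log2 fold change of −0.19 missed the threshold (adjusted p = 0.0542; 0.0292 with DESeq2).

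In all, 4 of the 10 genes were called lower and 0 higher in mCre-TN, where 1.92% of all tested genes were lower and 1.55% higher. The median log2 fold change of the 10 was −0.10, against −0.001 over all genes tested. Both mCre-TN libraries were below both WT-TN libraries for 5 of the 10 and above them for 3, against 20.6% and 25.2% of all genes. The genes of the T and M regions and the partner proteins were not called. H2-T23 was at 391 and 425 CPM in WT-TN and 439 and 484 in mCre-TN (log2 fold change 0.16, adjusted p = 0.129). B2m, at 2105 and 2371 against 2104 and 2384 CPM, overlapped completely (−0.01, SE 0.0645). H2-T22 (0.08), H2-M3 (0.06) and Tapbp (0.12), which encodes the peptide-loading protein tapasin, were also short of the threshold.

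In MP cells the genes called between genotypes were H2-T22, H2-T23 and H2-M3, all higher in mCre. H2-T23 was at 367 and 370 CPM in WT-MP and at 490 and 483 CPM in mCre-MP. The groups were well separated, with a log2 fold change of 0.40 (SE 0.0561, adjusted p = 0.00022). H2-T22, whose product is a ligand of some gamma-delta T cell receptors, was at 150 and 163 CPM in WT-MP and at 211 and 201 CPM in mCre-MP. It rose by a similar amount (0.40, SE 0.0603, edgeR adjusted p = 0.000562), and both calls held in each of the 15 alternatives. H2-T22 and H2-T23 both lie opposite A930015D03Rik, whose reads may be counted with theirs, so these rises may not be separate. H2-M3 was at 58.3 and 60.1 against 69.3 and 68.7 CPM (0.22, SE 0.0589, adjusted p = 0.0373). That call was lost with DESeq2 (adjusted p = 0.142) and without any 1 of the 4 MP libraries (adjusted p = 0.166 to 0.237). Tapbp was at 430 and 483 against 540 and 510 CPM (0.20, adjusted p = 0.0803).

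For H2-Q6 the MP libraries had 547 and 575 CPM (WT) against 669 and 564 CPM (mCre). The libraries overlapped, and the log2 fold change was 0.14 (adjusted p = 0.301). H2-Q7 (0.09), H2-Q4 (0.13), H2-K1 (0.03), H2-D1 (0.08) and B2m (0.07) were not called either. Thus 3 of the 10 genes were called higher and 0 lower in mCre-MP, against 2.08% and 1.97% of all genes, with a median of 0.135 (all genes 0). For 7 of the 10 both mCre-MP libraries were above both WT-MP libraries, which held for 24.1% of all genes. With subset as a covariate and the 4 mCre libraries set against the 4 WT libraries, H2-T23 rose (0.28, SE 0.0507, adjusted p = 0.00226). H2-M3 (0.15, adjusted p = 0.041) and Tapbp (0.16, adjusted p = 0.0218) were called as well, and 0 of the 10 were lower, against 5.06% of all genes higher and 5.97% lower. H2-T22 had a larger value (0.24) and was not called by edgeR (adjusted p = 0.0604), but was by DESeq2 (0.00207) and voom (0.0193), and in 6 of 14 alternatives. The calls of H2-M3 and Tapbp were lost without WT-TN replicate 1 (adjusted p = 0.0524 for H2-M3 and 0.0738 for Tapbp), WT-MP replicate 1 (0.156 and 0.113), mCre-TN replicate 2 (0.109 and 0.0768) or mCre-MP replicate 1 (0.135 and 0.0925). For H2-M3 the same held without WT-MP replicate 2 (0.12) or mCre-MP replicate 2 (0.13), with DESeq2 (0.1) and with voom (0.056).

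**Figure D3:**
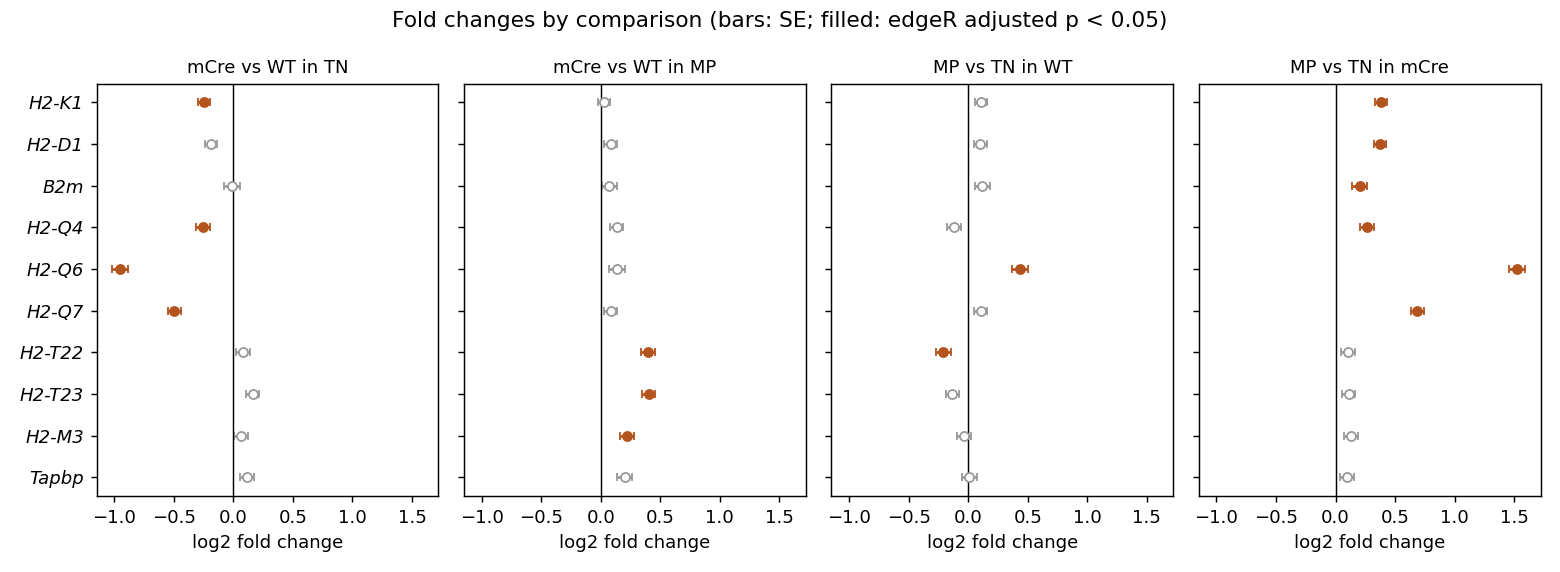
Log2 fold changes of the 10 genes (x axis) in the 4 comparisons between groups, with standard errors as bars and filled points for an edgeR adjusted p under 0.05. In the TN panel the Q-region genes, H2-K1, H2-D1 and B2m lie to the left of 0, with H2-D1 and B2m unfilled, and in the MP panel of mCre against WT all 10 genes lie to the right of it, with H2-T22, H2-T23 and H2-M3 filled.

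The subsets were compared within each genotype. In WT cells, H2-Q6 rose from TN to MP (log2 fold change 0.44, SE 0.0664, adjusted p = 9.04e-05), with the 2 MP libraries above both TN libraries. H2-T22 fell by 0.21 (SE 0.0609, adjusted p = 0.0132), a call lost without WT-TN replicate 2 (adjusted p = 0.157) or WT-MP replicate 1 (0.184). The other 8 genes were not called: H2-K1 was at 0.11, H2-D1 at 0.10, B2m at 0.12 and H2-T23 at −0.13. Thus 1 gene was higher and 1 lower, against a background of 16.2% higher and 15.6% lower, and the median of the 10 was 0.057 (all genes −0.002). Without WT-TN replicate 2 the calls were H2-K1, H2-D1, B2m and H2-Q6.

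In mCre cells, 6 of the 10 genes were called higher in MP and 0 lower, against 17% and 15.5% of all genes, with a median of 0.233 (all genes 0.002). H2-Q6 rose by 1.52 (SE 0.0678, adjusted p = 4.51e-11) and H2-Q7 by 0.69 (SE 0.0558, adjusted p = 1.04e-08). H2-K1 was at 2680 and 2767 CPM in mCre-TN and 3546 and 3401 CPM in mCre-MP, and rose by 0.38 (SE 0.0506). H2-D1, from 2101 and 2163 to 2763 and 2637 CPM, rose by 0.37 (SE 0.0523). These 4 genes kept their calls in each of the 15 alternatives. H2-Q4 (0.26, adjusted p = 0.00169) lost its call without mCre-TN replicate 1 (0.0604) or mCre-MP replicate 1 (0.0534). B2m (0.20, adjusted p = 0.0251) lost it without mCre-TN replicate 1 (0.33), mCre-MP replicate 1 (0.0658) or mCre-MP replicate 2 (0.143). H2-T22 (0.10), H2-T23 (0.11), H2-M3 (0.13) and Tapbp (0.10) were not called. This comparison shares the mCre-TN libraries with that of the genotypes in TN cells, so the low Q-region values there enter both.

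The difference between the subset effects was tested directly as an interaction. It was called for H2-Q6, whose MP against TN log2 difference was larger in mCre than in WT by 1.09 (SE 0.0942, adjusted p = 3.74e-05), and for H2-Q7, where it was larger by 0.58 (SE 0.0786, adjusted p = 0.0011). Among the 12313 genes these ranked 2 and 7 by p, and 16 genes were called in all, 0.0487% higher and 0.0812% lower. H2-Q4 (0.38, adjusted p = 0.0926) missed the threshold, as did H2-T22 (0.31), H2-K1 (0.28), H2-D1 (0.27) and H2-T23 (0.24). An unadjusted edgeR p under 0.05 was found for 7 of the 10, H2-Q6, H2-Q7 and these uncalled genes, all with the same sign. The share of all genes at that p was not counted. Among the 12313 genes the 7 ranked from 2 to 152, whereas H2-M3, Tapbp and B2m ranked 1023, 4242 and 4806. The unadjusted edgeR p of H2-M3 was 0.0729, so fewer than 1023 of the 12313 genes had one under 0.05. All 10 genes were measured in the same 8 libraries, so their signs are not independent of one another. DESeq2 called H2-Q4 in addition (adjusted p = 0.0207). The median interaction of the 10 was 0.274, against 0.006 over all genes.

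Ratios within a library do not depend on its depth, and show how the family's makeup differed. The ratio of H2-Q6 to H2-Q7 counts was 0.58 and 0.554 in mCre-TN against 0.772 and 0.78 in WT-TN. In MP cells it was 1.06 and 0.959 (mCre) against 0.991 and 0.961 (WT). Both mCre-TN libraries were below all others, and the MP libraries of the 2 genotypes overlapped. For H2-Q6 to H2-K1 the ratio was 0.132 and 0.13 in WT-TN, 0.0813 and 0.0798 in mCre-TN, and between 0.163 and 0.189 in the 4 MP libraries. H2-T23 to H2-K1 was higher in mCre, going from 0.127 and 0.128 in WT-TN to 0.164 and 0.175 in mCre-TN, and from 0.111 and 0.105 in WT-MP to 0.138 and 0.142 in mCre-MP. H2-K1 to H2-D1 lay between 1.32 and 1.35 in the 4 WT libraries and between 1.28 and 1.29 in the 4 mCre libraries, without overlap. Summed over the 8 heavy chain genes, counts per B2m count were lowest in mCre-TN (3.06 and 2.82) and lay between 3.26 and 3.57 elsewhere. With all H2-Q lines of the table summed into 1 gene, the Q region still fell in mCre-TN (−0.52, SE 0.0583, adjusted p = 4.2e-05) and the interaction was 0.63 (adjusted p = 0.000887).

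**Figure D4:**
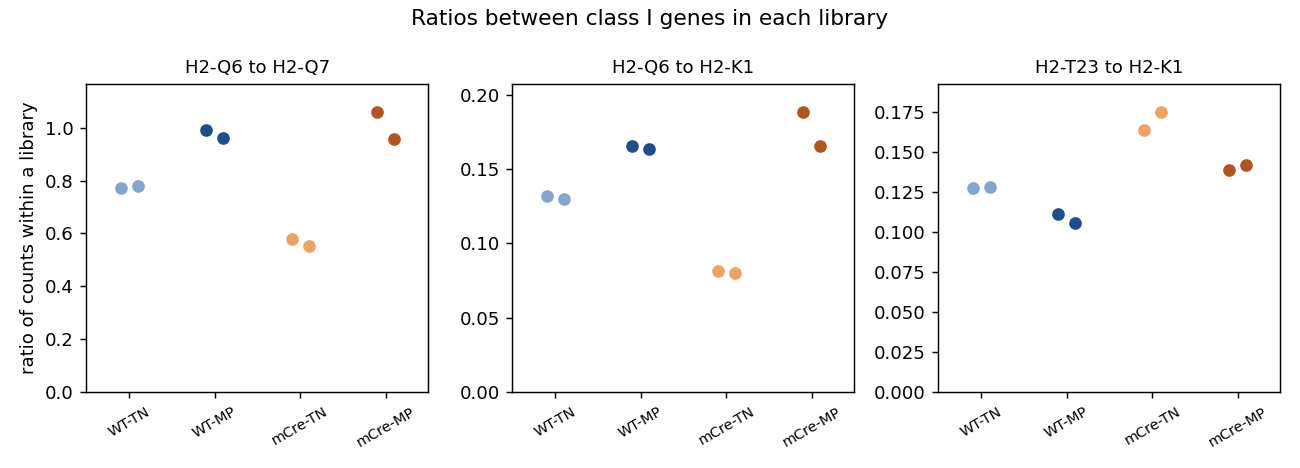
Ratios of counts between class I genes within each library (y axis, from 0; x axis, group; points, single libraries). Relative to H2-K1, H2-Q6 is lowest and H2-T23 highest in the 2 mCre-TN libraries.

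Other class I and class I-like genes were taken from a list of 36 symbols, of which 23 had a line and 9 were tested. H2-T24, a nonclassical chain of the T region that also lies opposite A930015D03Rik, rose in mCre in both subsets, from 32.7 ± 1.8 to 51.3 ± 0.69 CPM in TN (SD, n = 2 each; log2 fold change 0.64, edgeR adjusted p = 0.000418) and from 27.2 ± 0.19 to 47.4 ± 7.6 CPM in MP (0.80, adjusted p = 3.9e-05). It was the only one of the 9 called in mCre-TN, where 1.55% of all genes were higher and 1.92% lower. H2-Q10, whose product is known as a secreted liver protein, was at 4.97 ± 0.73 CPM in TN and 20.2 ± 2 CPM in MP in WT cells, against 3.38 ± 2 and 17 ± 4.1 CPM in mCre cells. It rose in MP in both genotypes (2.02 and 2.27) and was not called between genotypes (−0.51 in TN). H2-Q2 rose in WT-MP (1.58, adjusted p = 0.0462) at about 1 CPM or less, and H2-Q1 and H2-T3 stayed under 1 CPM in the group means. Fcgrt, the neonatal Fc receptor chain, rose in MP (1.35 in WT and 1.22 in mCre) and fell in mCre-MP (−0.51). Ulbp1, a ligand of NKG2D, rose in MP (0.41 and 0.32), and Cd1d1, which presents lipids, fell (−0.72 and −0.64). Of the 9, 4 were higher and 1 lower in MP in WT (16.2% and 15.6% of all genes), and 3 and 1 in mCre (17% and 15.5%). In mCre-MP against WT-MP, 1 was higher and 1 lower (2.08% and 1.97% of all genes).

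Genes that supply and load peptides were taken from a list of 22, all tested. Of these, 0 were called in mCre-TN by edgeR, DESeq2 or voom, where edgeR called 1.55% of all genes higher and 1.92% lower. An unadjusted edgeR p under 0.05 was found for 4, and the share of all genes at that p was not counted. In mCre-MP 3 were higher, against 2.08% of all genes: the chaperones Calr (0.28) and Hspa5 (0.20) and the immunoproteasome subunit Psmb9 (0.32, edgeR adjusted p = 0.0265). With both subsets together, 5 were higher, Hspa5, Psmb10, Erap1, Tap1 (0.24, edgeR adjusted p = 0.0413) and Canx, and Sec62 was lower. Of all genes, 5.06% were higher and 5.97% lower. Between subsets, Tap2, a subunit of the peptide transporter, fell in MP in WT (−0.33, adjusted p = 6.39e-05) and in mCre (−0.21), whereas Pdia3, a member of the loading complex, rose (0.34 and 0.38). In WT, 4 of the 22 were higher and 1 lower in MP, where 16.2% and 15.6% of all genes were, so the higher count is near the background. In mCre they were 6 and 1, where 17% and 15.5% of all genes were called. Tap1 (0.18), Psmb8 (0.03) and Psmb9 (0.07) were not called in mCre-TN.

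Regulators of class I transcription, with the interferon receptor chains, went in both directions. Stat2 and Irf9, which act together downstream of interferon receptors, rose in mCre-TN (0.33 and 0.31, adjusted p = 0.00792 and 0.0142) and in mCre-MP (0.31 and 0.46). Irf7 rose in mCre-MP (0.84, adjusted p = 0.0425). Nfya, a subunit of the factor that binds CCAAT boxes, fell in both (−0.22 and −0.25), and Ifngr1 fell in mCre-TN (−0.31, adjusted p = 0.00294). Nlrc5, the transactivator of class I genes, was at 413 ± 20 CPM in WT-TN and 505 ± 99 in mCre-TN (SD, n = 2 each). In MP cells it was at 293 ± 2.7 (WT) and 400 ± 20 (mCre). It was not called by edgeR in TN (0.28, adjusted p = 0.403) or in MP (0.45, adjusted p = 0.192). Of the 25 tested regulators, 2 were higher and 2 lower in mCre-TN (1.55% and 1.92% of all genes). In mCre-MP 3 were higher and 1 lower (2.08% and 1.97% of all genes). Between subsets, 6 rose and 4 fell in WT (16.2% and 15.6% of all genes) and 7 and 2 in mCre (17% and 15.5%), among them Ifngr1 (1.17 and 1.30) and Ifngr2 (−4.10 and −3.20). None of the 25 was called for the interaction by edgeR, DESeq2 or voom. Of all genes, edgeR called 0.0487% higher and 0.0812% lower there, so 0 of 25 is near the background. An unadjusted edgeR p under 0.05 was found for 1 of the 25, with the share of all genes at that p not counted.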

How the data were processed

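The authors deposited raw counts for each gene symbol. The submitters' processing notes name Trim Galore, HISAT2, featureCounts and mm10; their versions, the annotation, the strand setting and the handling of multi-mapping reads are not stated. The members, lists and tests were chosen with earlier results of these data known. Counts entered edgeR 4.0.16 (R 4.3.3) with TMM scaling, filterByExpr and robust quasi-likelihood F tests, all 8 libraries in a single fit of 4 group means (genotype across subsets: additive, with subset as covariate). Tests were two-sided, Benjamini-Hochberg adjusted over 12313 genes and called under 0.05; SE is the log2 fold change divided by the root of F. The script was tested on simulated data. CPM divides counts by library totals (13479586 to 30057658), so H2-K1 rests on 41528 or more reads per library and H2-M3 on 819 or more. Replicates differed by more than sampling noise (chi-square per degree of freedom 4.2 to 6.26). The alternatives were total-count scaling, DESeq2 1.42.0, voom in limma 3.58.1, 2 filters, only the groups compared, a replicate block, each library left out and paralogs summed. Positions and exon lengths came from GENCODE M21 on GRCm38, windows from RefSeq. Beside the 10 genes, the text names called genes of each list, up to 4 per list and comparison by p, Nlrc5, Tap1, Tap2, Psmb8, Psmb9 and H2-Q and H2-T genes fixed by name; further called genes were added after their values were seen.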

Additional observations from a re-analysis of the deposited data

Results flagged for a closer look

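The subset effect of H2-Q6 differed between genotypes: its MP against TN log2 difference was larger in mCre by 1.09, with the 2 mCre-TN libraries (218 and 221 CPM) below the 2 WT-TN libraries (406 and 432 CPM) and the MP libraries of both genotypes overlapping. The same test was passed by H2-Q7, with a difference of 0.58. Both calls were kept in each of the 14 alternatives run for this test. H2-Q6 and H2-Q7 share 8.36% of H2-Q6's stretches of 100 bases, so their counts are not fully separate measurements.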

How the results depend on the processing

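Of the 10 genes, the number called in MP against TN in WT was 2, and 4 without the filter on low counts; across subsets it was 3 and became 5, and for the interaction it was 2 and became 6 under the same setting. Leaving out 1 library at a time gave 1 to 4 called genes for MP against TN in WT, 4 to 7 in mCre, 2 to 5 for mCre against WT in TN, 2 to 4 in MP, 1 to 4 across subsets and 2 for the interaction. Over 880 values of single genes under the up to 15 alternatives that kept genes separate, 822 kept their side of the threshold, 28 lost a call and 30 gained one. With all H2-Q lines summed, the value for H2-Q4 in WT turned from −0.12 to 0.16. With the replicate number as a block, the called genes were 2 and 6 between subsets (WT and mCre), 5 and 4 between genotypes (TN and MP), 3 across subsets and 2 for the interaction; H2-D1 in TN (adjusted p = 0.0384) and Tapbp in MP (0.0386) were gained and no other call on the 10 genes changed. Deviations of samples that share a number correlated weakly within a genotype (0.109 between WT-TN and WT-MP, 0.077 between mCre-TN and mCre-MP). Across genotypes the correlations were −0.045 to −0.014. The numbers were not taken as pairs in the main fit. The block had a shared effect for both genotypes, so pairing within a genotype was not tested. Over all genes, calls for mCre against WT went from 427 to 783 in TN and from 498 to 888 in MP without the filter, and to 188 to 296 with an MP library left out, 191 without WT-TN replicate 2 or 200 without mCre-TN replicate 2; across subsets they went from 1358 to 863 without WT-MP replicate 2. For the interaction the 16 calls became 26 with DESeq2, 7 with voom, 81 without the filter and 9 to 29 with libraries left out. H2-T22 could not be summed with H2-T9 and H2-T10, which were not analysed here. With 2 libraries a group, small differences in abundant genes such as B2m are limited by the spread between libraries and not by depth.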

Other observations

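A list of 14 class I receptors and related surface proteins was examined, of which 11 were tested. In MP cells 7 rose in both genotypes, where 16.2% (WT) and 17% (mCre) of all genes were higher. They included Lair1, known as a collagen receptor, and Cd244a, known to bind CD48, which are not receptors of class I. Among the others were Klrk1 (log2 fold change 4.14 in WT and 3.89 in mCre), Cd160 (1.41 and 0.87) and Klrd1 (0.53 and 0.48), which encodes the CD94 chain that pairs with NKG2A to read Qa-1. In mCre-MP against WT-MP, 4 of the 11 fell, against 1.97% of all genes: Klrk1 (−0.49), Klrc1 (−0.60), Cd160 (−0.43) and Klrc2 (−0.63). Klrd1 was not called there (−0.23, edgeR adjusted p = 0.0862). A relation between these values and the rise of H2-T23 was not tested. In mCre-TN 0 of the 11 were called by edgeR, DESeq2 or voom, where edgeR called 1.55% of all genes higher and 1.92% lower.

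Within 250 kb of H2-Q6, 20 genes were tested, 16 of them outside the 10 described here. In mCre-TN the calls in that stretch were H2-Q4, H2-Q6 and H2-Q7 and, among the other 16, Ltb, all lower. Of all genes, 1.92% were lower there. In mCre-MP, Tnf was called higher (0.29) and Cchcr1 lower (−0.49), where 2.08% of all genes were higher and 1.97% lower. In mCre-TN, Cchcr1 had a like value that was not called (−0.48, edgeR adjusted p = 0.0821). Cchcr1 was called lower across subsets (−0.49), where 5.97% of all genes were.

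Across the 8 libraries, the genes whose log2 CPM followed that of H2-Q6 most closely among 8450 candidates were Traf1 (Pearson r = 0.978), Dennd5a (0.973), Trmt12 (0.966), Ap1b1 (0.963) and Ccdc166 (0.96). For H2-K1 they were Polr1c (0.97), Ndufa9 (0.966), Trpm4 (0.963), Bcs1l (0.961) and Chd7 (0.956). These values describe 8 libraries in 4 groups, were picked as the highest of many, and carry no test.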
